A study of Mus musculus with 9 samples.

Results

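The cadherin superfamily and its catenin partners were followed in single-cell RNA profiles of the mouse neocortex at E18.5. Members were taken by gene symbol alone. They were numbered *Cdh* genes, *Pcdh* genes, *Fat1* to *Fat4*, *Celsr1* to *Celsr3*, and *Ctnna*, *Ctnnb* or *Ctnnd* genes with a digit or l next. This gave 101 members among the 17477 gene rows of 6 libraries, each library from a different animal. WT2, WT3, WT4 and WT5 were labelled wild type and KO4 and KO5 were labelled *Tcf4* knockout (KO). Embryos of both genotypes were littermates from *Tcf4* haploinsufficient parents. In KO animals both *Tcf4* alleles carry a *lacZ*/neomycin cassette upstream of exon 4, in every cell. According to the study, the long protein isoform TCF4B is lost while the short isoform TCF4A remains. Genotypes were compared as WT2, WT3 and WT4 (written WT2 to WT4 below) against KO4 and KO5, since the study left out a wild-type animal with low *Tcf4* that its methods do not number. WT5 was taken to be that animal from its *Tcf4* level (7.20 UMIs per 10000 over all kept cells, against 9.29 and 7.59 in KO4 and KO5 and 12.2 to 12.6 in the others), and its label does not say so. Values of WT5 are given beside those of the genes on which the genotype results turn.

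Cadherins are calcium-dependent adhesion proteins that bind the same or a related cadherin on a neighbouring cell. Classical cadherins hold on to the actin cytoskeleton through catenins: beta-catenin and the delta-catenins bind the cadherin tail, and alpha-catenins link beta-catenin to actin. In the developing cortex, N-cadherin (*Cdh2*) builds the apical junctions of radial glia and is used by newborn neurons that migrate along glial fibres, while protocadherins, Fat and Celsr cadherins act in cell sorting, dendrite and axon arrangement and planar polarity. Beta-catenin also carries Wnt signals to the nucleus.

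Every level below is the mean over cells of the unique molecular identifiers (UMIs) of a gene per 10000 UMIs of the cell. With this 3′ chemistry a captured transcript gives 1 UMI whatever its length, so levels of different genes were set side by side without a correction for length. Deposited cells of a library held between 3487769 and 29767293 UMIs, and 1184 to 6173 cells per library were kept, with a median of 2217 to 4359 UMIs. A limit of 1% haemoglobin UMIs left out 40.4% of cells in KO5, 13.9% in KO4, 3.71% in WT5 and at most 1.34% in WT2 to WT4. Between 2 and 46 cell barcodes were shared by any pair of libraries, at most 1.01% of the smaller library. Cells were assigned to classes by counting markers, none of which is a member. The classes compared were upper layer neurons (388 to 2138 cells per library), deep layer neurons (68 to 956), all glutamatergic neurons (722 to 3496), radial glia and astrocytes (59 to 270) and GABAergic neurons (20, 35 and 666 cells in WT2 to WT4, but 7, 7 and 3 in WT5, KO4 and KO5). *Xist* was absent from KO5 and between 12.2 and 18.2 in glial and glutamatergic classes of the other libraries, which matters for the X-linked members *Pcdh11x* and *Pcdh19*.

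WT5, KO4 and KO5 stood apart from WT2 to WT4 in how far the classes differed. *Dbi*, a glial gene that was not a gate marker, measured 75.5, 76.9 and 63.5 in radial glia and astrocytes of WT2 to WT4 against 4.15, 2.88 and 3.94 in glutamatergic neurons. In WT5, KO4 and KO5 it measured 14.3, 26.0 and 26.5 against 7.92, 7.73 and 9.13. The spread over genes of the log2 difference between these classes had an SD of 0.681 to 0.762 in WT2 to WT4 and of 0.234 to 0.259 in WT5, KO4 and KO5, and for upper against deep layer neurons the SD was 0.195 to 0.232 and 0.0726 to 0.0954. *Actb* was 43.6 to 69.7 in upper layer neurons of the former and 170 to 195 in those of the latter. Both KO libraries thus share this with a library labelled wild type, and genotype cannot be told apart from it in the comparison of WT2 to WT4 with KO4 and KO5. *Tcf4* itself was 14.1, 14.1 and 15.03 in upper layer neurons of WT2 to WT4, 7.58 in WT5, and 10.2 and 7.54 in KO4 and KO5. UMIs of the 3′ end do not separate its isoforms.

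The 101 members together received 101520 UMIs, and their summed level was narrow: 15.5, 15.8 and 16.3 in upper layer neurons of WT2 to WT4, 14.9 in WT5, and 15.1 and 14.2 in KO4 and KO5. It was lower in GABAergic neurons of the libraries that had them (14.3, 11.97 and 13.2). The 8 catenins and catenin-like genes took 30.6% of member UMIs, the 12 non-clustered protocadherins 24.3%, the 4 type I classical cadherins 19.4% and the 12 type II cadherins 6.68%. The 3 Celsr cadherins took 5.48%, the 3 Fat cadherins 4.04% and 3 other cadherins 2.43%. The clustered protocadherins were numerous but thinly counted, with 3.98% for 21 beta genes, 2.43% for 22 gamma genes and 0.661% for 13 alpha genes. Of these, 12 alpha, 2 beta and 21 gamma genes share their last exon with another member, so their 3′ UMIs cannot be assigned to a gene with certainty. In all 6 files 72 members had a row, 29 had a row in 2 to 5 files, and 37 passed the filter on low values in at least 1 comparison. All 13 alpha genes are among the 64 that never passed, which are not judged here.

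*Cdh2* (16262 UMIs) and *Ctnnb1*, beta-catenin (13683 UMIs), led the members, followed by the protocadherin *Pcdh9* (5607), *Ctnnd2*, a delta-catenin of neurons (5560), and *Ctnna2*, the alpha-catenin of neurons (4676). *Cdh2* measured 2.15, 3.09 and 2.39 in upper layer neurons of WT2 to WT4, a mean of 2.54 ± 0.49 (SD, n = 3), 2.62 in WT5, and 2.72 and 2.31 in KO4 and KO5, a mean of 2.51 ± 0.29 (SD, n = 2). With cells thinned to 1800 UMIs, 33.2% to 41.8% of upper layer neurons had a *Cdh2* UMI over the 6 libraries (42.1% to 66.8% before thinning), which left out no cell. As a measure of background, *Cdh2* had a UMI in 13.5% of 37 thinned microglia in WT4, below the 34.6% of its upper layer neurons, but in 44.7% of 38 in KO4 and 41.7% of 12 in WT5, above the 39.2% and 38.1% of their upper layer neurons. These microglia held a median of 3168, 2178 and 2282 UMIs before thinning, and the upper layer neurons 4793, 2317 and 2261. The microglia carried a median of 8 microglial markers in WT4 but 4 in KO4 and 3.5 in WT5. Their median glutamatergic markers were 2, 3 and 2.5. In KO4 and WT5 they are thus an uncertain measure of background, and whether the share of neurons with a *Cdh2* UMI lay above it cannot be told. *Ctnnb1* measured 2.03, 2.304 and 2.02 in WT2 to WT4, 1.55 in WT5, and 1.71 and 1.81 in KO4 and KO5.

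**Figure D1:**
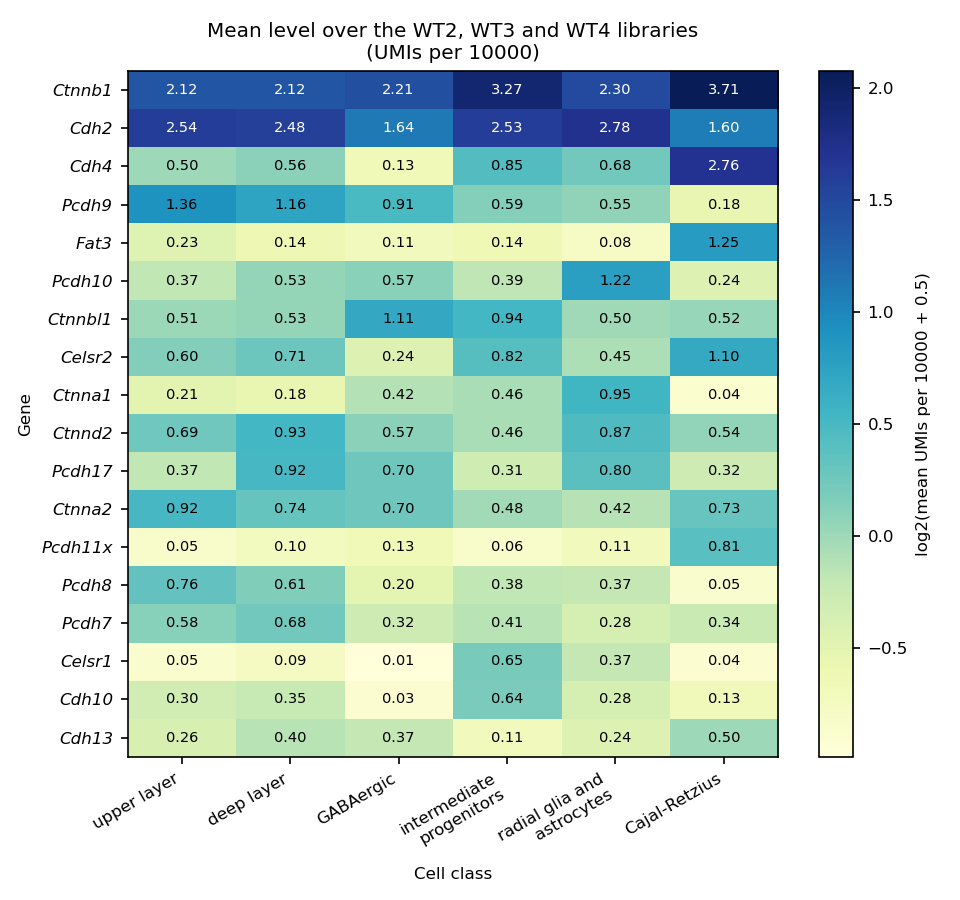
Mean UMIs per 10000 of 18 members (rows) by cell class (columns), over WT2 to WT4, and over WT2 and WT4 for Cajal-Retzius cells, of which WT3 had 12. Numbers are the means and the colour is their log2 after adding 0.5. Rows are members whose mean over all libraries with at least 20 cells, KO included, reached 0.5 in a class, shown here or not. *Cdh13* reached 0.5 in none of these columns, with 0.497 in Cajal-Retzius cells. *Ctnnb1* and *Cdh2* lie above 1.5 in every column, while *Pcdh9* (1.36), *Pcdh10* (1.22) and *Cdh4* (2.76) have their highest values in upper layer neurons, radial glia and astrocytes, and Cajal-Retzius cells, respectively.

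Over classes of WT2 to WT4, the members fell into different patterns, shown in the map of mean levels. *Pcdh9* was 1.36 ± 0.258 (SD, n = 3) in upper layer neurons, 1.16 ± 0.35 in deep layer neurons and 0.55 ± 0.0775 in radial glia and astrocytes. *Pcdh10* had the opposite order, with 0.375 ± 0.0796, 0.531 ± 0.177 and 1.22 ± 0.399 in the same classes. *Cdh4*, R-cadherin, was 2.48 and 3.05 in Cajal-Retzius cells of WT2 and WT4 (35 and 45 cells), the early neurons of the cortical surface. It was 0.436 to 0.622 in upper layer neurons of the 3 libraries. In Cajal-Retzius cells of WT3, WT5, KO4 and KO5 it was 1.05, 1.17, 1.22 and 0, from 12, 14, 26 and 3 cells. *Fat3* (1.06 and 1.45), *Celsr2* (1.06 and 1.13) and *Pcdh11x* (0.476 and 1.15) also had their highest mean there among the classes of the map. *Celsr1*, a planar polarity cadherin of progenitors, was 0.738, 0.492 and 0.733 in intermediate progenitors (47, 116 and 196 cells) and 0.0465 to 0.0703 in glutamatergic neurons. *Cdh10* was 0.394, 0.863 and 0.675 in intermediate progenitors, and its mean there was 0.644 ± 0.236 against 0.33 ± 0.0745 in glutamatergic neurons. *Cdh13*, the cadherin held by a lipid anchor without a cytoplasmic tail, lay between 0.166 and 0.395 in glutamatergic neurons and between 0.139 and 0.699 in GABAergic neurons. The ends of the GABAergic range are WT3 and WT2, where 3 UMIs would amount to 0.265 and 0.613, so that range is poorly measured. These differences between Cajal-Retzius cells, intermediate progenitors and other classes were not tested.

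The 5′ flanks of the protocadherins on which the genotype results turn are shown because TCF4 is a basic helix-loop-helix factor, a family known to bind E-boxes (CANNTG). *Pcdh9* lies on chromosome 14 (93013410 to 93890679, minus strand), *Pcdh8* on chromosome 14 (79766775 to 79771312, minus strand) and *Pcdh10* on chromosome 3 (45378398 to 45435623, plus strand), in GRCm38. RefSeq promoters of GRCm38.p6, from 250 bases before to 50 bases after the start, lay at chr14:93890630-93890929, chr14:79771263-79771562 and chr3:45378148-45378447, and 35 member symbols matched such an entry. Of the 2 entries of *Pcdh9* the one with the higher coordinates is printed. Capitals mark CCAAT or its reverse complement ATTGG, and TATAAA. All are written 5′ to 3′ on the strand of the gene.
Pcdh9: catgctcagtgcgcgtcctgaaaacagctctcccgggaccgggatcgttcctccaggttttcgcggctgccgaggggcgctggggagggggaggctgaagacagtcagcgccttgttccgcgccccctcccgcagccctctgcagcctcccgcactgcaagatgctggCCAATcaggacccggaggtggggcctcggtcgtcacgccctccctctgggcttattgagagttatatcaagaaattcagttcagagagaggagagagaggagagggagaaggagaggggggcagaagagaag
Pcdh8: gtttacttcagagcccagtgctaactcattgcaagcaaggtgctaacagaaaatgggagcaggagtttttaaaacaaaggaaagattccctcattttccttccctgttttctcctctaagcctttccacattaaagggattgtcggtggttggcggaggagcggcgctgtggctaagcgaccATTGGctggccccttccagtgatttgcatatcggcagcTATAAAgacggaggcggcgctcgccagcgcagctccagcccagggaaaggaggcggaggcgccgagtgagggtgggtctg
Pcdh10: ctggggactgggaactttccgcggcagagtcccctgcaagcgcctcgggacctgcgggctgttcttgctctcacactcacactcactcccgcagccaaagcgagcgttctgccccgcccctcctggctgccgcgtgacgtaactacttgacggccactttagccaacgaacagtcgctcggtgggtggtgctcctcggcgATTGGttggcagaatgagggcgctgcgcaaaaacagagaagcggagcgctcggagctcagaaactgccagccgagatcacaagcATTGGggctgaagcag
CANNTG, read on both strands, was in none of these windows, whereas 72.3% of 32851 promoters of the same length held it. CCAAT occurred once in *Pcdh9* (its first base 82 bases before the start) and *Pcdh8* (68 bases before) and at 2 places in *Pcdh10* (the first 50 bases before), against 37.4% of all promoters with at least 1. TATAAA was found in *Pcdh8* alone, 30 bases before the start, against 13.6% of all promoters. No match says only that these letters are not in the window.

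Radial glia and astrocytes were compared with glutamatergic neurons within libraries, to see which members differ between progenitor or glial cells and their neuronal progeny. Over the 6 libraries, 2 of 34 tested members were called, against 9.47% of all 9719 genes tested (5.56% higher and 3.91% lower). *Celsr1* was higher in radial glia and astrocytes by 0.42 ± 0.0941 (SE) on the log2 scale with 0.5 added (limma-trend, adjusted p = 0.0207), and was higher in 5 of 6 libraries. *Cdh12*, a type II cadherin of neurons, was lower by the same measure (-0.32 ± 0.0737, adjusted p = 0.0225) in 6 of 6. Both genes passed the filter on low values (0.1 or more in at least 2 of the library means compared) through 1 class only, *Celsr1* through radial glia and astrocytes and *Cdh12* through neurons, the class where each was high, so the filter itself favoured these differences, and with no filter neither was called (adjusted p = 0.107 and 0.1001). Neither call was kept without WT2, WT3 or WT4 (adjusted p = 0.0672 to 0.0944). The median log2 difference was -0.037 over members and 0.000236 over all genes.

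In WT2 to WT4 alone, a fit added after seeing the data, 13 of 31 members were called, 5 higher and 8 lower in radial glia and astrocytes, where 35.6% of all 9191 genes were called (19.5% higher and 16.2% lower). The members' share of calls was thus close to that of all genes. The largest difference was that of *Ctnna1*, the alpha-catenin of epithelia and progenitors. It measured 0.563, 1.52 and 0.78 in radial glia and astrocytes of WT2 to WT4 and 0.17, 0.242 and 0.172 in glutamatergic neurons, so that the classes did not overlap (1.01 ± 0.134, adjusted p = 1.36e-05). *Ctnna2*, its neuronal counterpart, went the other way, with 0.579, 0.189 and 0.48 against 0.985, 0.868 and 0.853 (-0.64 ± 0.125, adjusted p = 0.000674). *Pcdh10* was 1.67, 1.03 and 0.945 against 0.457, 0.286 and 0.464 (0.91 ± 0.124, adjusted p = 2.01e-05), and *Celsr1* 0.32, 0.356 and 0.439 against 0.0465, 0.0703 and 0.0514 (0.65 ± 0.0953, adjusted p = 4.45e-05). *Fat1*, a large cadherin of radial glial junctions (0.59), and *Pcdh17* (0.42) were higher as well. Lower in radial glia and astrocytes were *Pcdh9* (-0.71), *Pcdh8* (-0.53), *Pcdh7* (-0.49), *Cdh12* (-0.47), *Cdh8* (-0.42), *Fat3* (-0.31) and *Pcdhb7* (-0.30), 4 of them protocadherins of the non-clustered or beta kind. Their adjusted p ran from 0.000243 to 0.0157. Of the 13, *Celsr1*, *Cdh12*, *Cdh8*, *Fat3* and *Pcdhb7* reached 0.1 in 2 libraries only in the class where they were high, and their selection favoured a difference.

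The main junction genes did not follow these differences. *Cdh2* differed by 0.13 ± 0.1 between radial glia and astrocytes and glutamatergic neurons of WT2 to WT4 (adjusted p = 0.353) and by 0.064 ± 0.094 over the 6 libraries (adjusted p = 0.693). *Ctnnb1* differed by 0.034 in the former fit and 0.19 in the latter, *Ctnnbl1* by -0.055 and 0.024, *Ctnnd1* (p120-catenin) by 0.069 and 0.14, and *Ctnnd2* by 0.18 and -0.059, none called (adjusted p from 0.210 to 0.903). *Ctnna1* over the 6 libraries differed by 0.61 ± 0.173 (adjusted p = 0.0581), and *Ctnna2* by -0.31 ± 0.142 (adjusted p = 0.172).

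**Figure D2:**
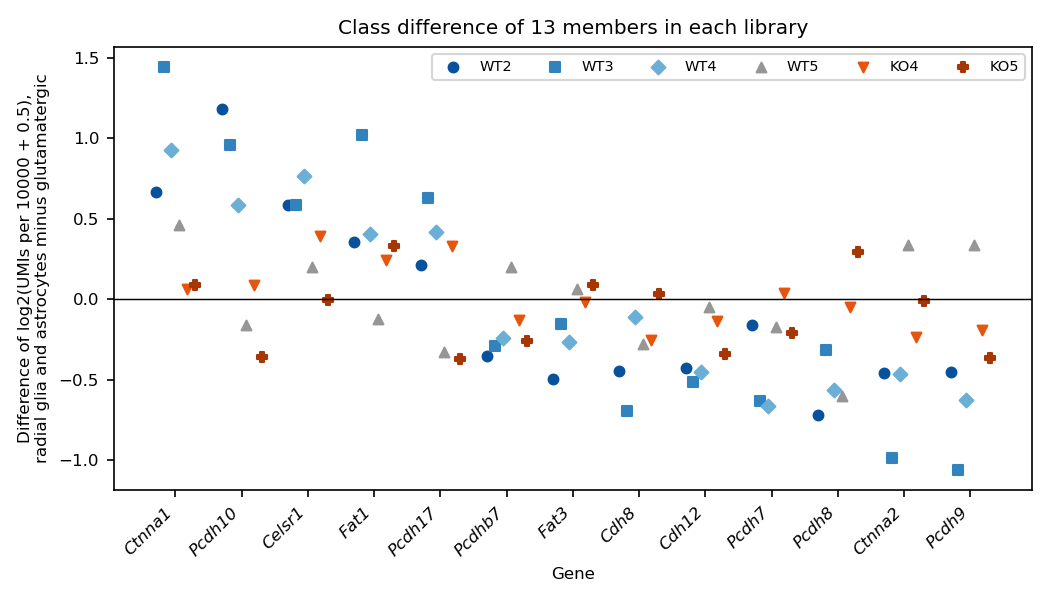
Difference of log2(UMIs per 10000 + 0.5), radial glia and astrocytes minus glutamatergic neurons (vertical axis), in each of 6 libraries (points) for the 13 members called in WT2 to WT4 alone (horizontal axis). For *Ctnna1* the points of WT2 to WT4 lie at 0.67, 1.44 and 0.93 and those of WT5, KO4 and KO5 at 0.46, 0.07 and 0.09.

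In WT5, KO4 and KO5 alone none of 27 members was called by limma (2 at an unadjusted p under 0.05, edgeR and DESeq2 not run on these libraries). Of the 13 members called in WT2 to WT4, 12 were tested there and 4 had the opposite sign, *Pcdh10* (-0.14), *Pcdh17* (-0.12), *Ctnna2* (0.029) and *Fat3* (0.046). There the difference of *Pcdh10* was -0.16, 0.09 and -0.36, against 1.18, 0.96 and 0.58 in WT2 to WT4, as the plot of class differences by library shows. Cells of this class carried a median of 8, 9 and 9 of the radial glia markers in WT2 to WT4 but 5 in each of WT5, KO4 and KO5, the minimum of the gate, and a median of 1, 2 and 2 against 3 glutamatergic markers. Of 46 genes taken as partners of cadherins and catenins, 42 had a row. Over the 6 libraries 35 were tested and 4 called (9.47% of all genes were), *Tcf7l2*, a nuclear partner of beta-catenin, higher in radial glia and astrocytes (0.40), and *Apc* (-0.38), *Dab1*, the Reelin adaptor (-0.53), and *Kifap3*, a kinesin adaptor (-0.44), lower. In WT2 to WT4 alone 18 of 35 were called, 9 in each direction, where 35.6% of all genes were.

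GABAergic neurons were compared with glutamatergic neurons in WT2 to WT4, since the other libraries held fewer than 20. Of 31 members tested 7 were called, 6 lower and 1 higher in GABAergic neurons, where 4.79% of all 8635 genes were called (2.83% lower, 1.97% higher). *Pcdh8*, a protocadherin of dendrites that responds to activity, measured 0, 0.183 and 0.428 in GABAergic against 0.613, 0.674 and 0.963 in glutamatergic neurons of WT2 to WT4 (-0.86 ± 0.195, adjusted p = 0.00059). *Cdh4* was 0, 0.192 and 0.194 against 0.474, 0.485 and 0.673 (-0.74 ± 0.192, adjusted p = 0.00479). In both genes every GABAergic value, taken over the whole class, lay below every glutamatergic one. The 666 GABAergic cells of WT4 pooled 219 with interneuron markers, 107 with striatal markers and 340 others. In WT4 *Pcdh8* was 0.686 in interneurons and 0.205 in striatal cells, and *Cdh4* was 0.277 and 0.167. For *Pcdh8* the interneurons of WT4 thus lay above the glutamatergic neurons of WT2 and WT3. *Cdh2* was also lower, with 1.35, 1.73 and 1.84 against 2.14, 3.02 and 2.38, at the edge of the threshold (-0.49 ± 0.161, adjusted p = 0.04997).

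The remaining 3 members lower in GABAergic neurons were rare genes. They reached 0.1 in glutamatergic neurons only, so they were tested only through the class where they were high, which favoured a difference. *Cdh10* was listed at 0 in WT2 and WT3 and was 0.0996 in WT4, against 0.244, 0.378 and 0.368 (-0.64 ± 0.174, adjusted p = 0.00892). *Fat4*, a partner of Dchs cadherins in planar polarity, was at 0, 0 and 0.0957 against 0.292, 0.242 and 0.306 (-0.56 ± 0.165, adjusted p = 0.0219), and *Cdh12* at 0, 0 and 0.0566 against 0.174, 0.266 and 0.243 (-0.49 ± 0.147, adjusted p = 0.0247). In the GABAergic cells of WT2 and WT3, 3 UMIs would amount to 0.613 and 0.265, so a level like that of glutamatergic neurons was not detectable there for these 3 genes or for *Pcdh8* and *Cdh4* in WT2, nor for *Fat4* in WT3, and the 666 cells of WT4, where 3 UMIs amount to 0.0125, carry the difference. Without WT4 no member was called (limma, 11 at an unadjusted p under 0.05), and without WT3 only 2 were.

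*Ctnnbl1*, a catenin-like protein of the spliceosome, was the member called higher, with 1.58, 0.918 and 0.8287 against 0.589, 0.533 and 0.483 (0.61 ± 0.189, adjusted p = 0.0317), and the groups did not overlap. The catenins proper were not called: *Ctnnb1* was 2.47, 2.12 and 2.05 against 2.20, 2.37 and 2.08 (-0.005 ± 0.158, adjusted p = 0.993), *Ctnna1* differed by 0.37, *Ctnna2* by -0.24, *Ctnnd1* by -0.39 and *Ctnnd2* by -0.23 (adjusted p from 0.236 to 0.615). The median difference was -0.15 over the members tested and -0.03 over all genes. Of 30 partners *Dab1* alone was called (-1.44 ± 0.177, adjusted p = 1.06e-13). With edgeR 8 members were called, *Pcdh7* (lower) in addition, and with DESeq2 none (8 at an unadjusted p under 0.05). With cells thinned to 1800 UMIs limma called *Cdh10* alone (adjusted p = 0.00667), and with no filter on low values it called none of the members (adjusted p from 0.209 to 0.283 for these 7).

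**Figure D3:**
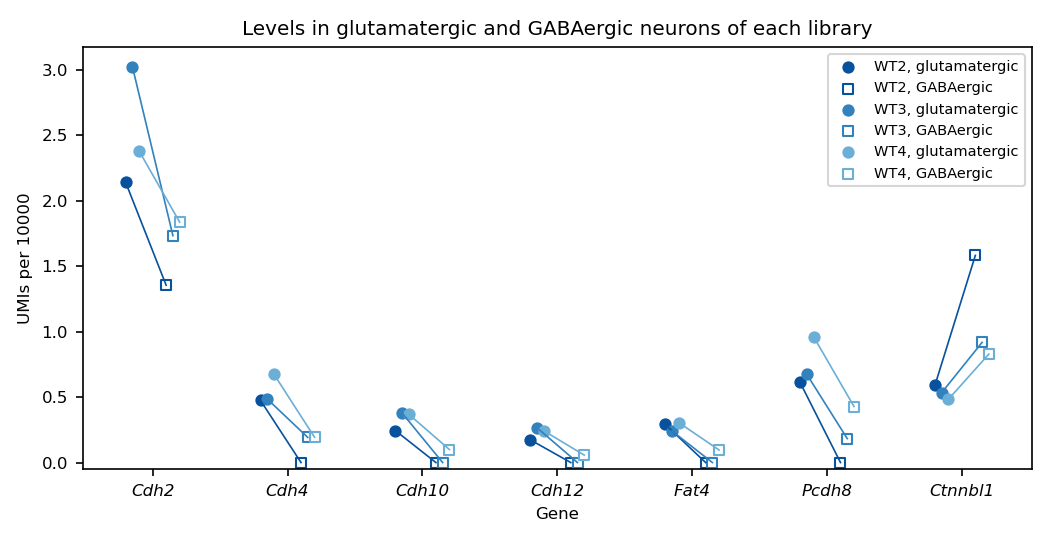
UMIs per 10000 (vertical axis) of the 7 members called between GABAergic (open squares) and glutamatergic (filled circles) neurons, joined within WT2 to WT4. Open squares lie below the circles for 6 genes and above them for *Ctnnbl1* (1.58, 0.918 and 0.8287 against 0.589, 0.533 and 0.483).

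Upper and deep layer neurons were compared to see whether members mark layers. Over the 6 libraries limma called 0 of 31 members and 0% of all 8879 genes (8 members at an unadjusted p under 0.05), edgeR called none of the members (6 unadjusted) and DESeq2 none of the 2 with an adjusted p (5 unadjusted). In WT2 to WT4 alone 1 of 29 members was called, against 1.86% of all 8490 genes (1.06% lower and 0.801% higher). *Pcdh17*, a protocadherin of axons that extend together, was 0.58, 0.209 and 0.332 in upper and 1.15, 0.853 and 0.761 in deep layer neurons of these libraries, without overlap (-0.71 ± 0.112, adjusted p = 0.000183). In WT5, KO4 and KO5 it was 0.792, 0.546 and 0.594 in upper and 0.847, 0.48 and 0.622 in deep layer neurons, with differences in both directions. Over the 6 libraries, the difference of upper minus deep layer neurons was -0.033 for *Cdh2*, -0.031 for *Ctnnb1*, 0.043 for *Ctnna1*, 0.13 for *Ctnna2*, -0.028 for *Ctnnbl1*, -0.12 for *Ctnnd1* and -0.19 for *Ctnnd2* (adjusted p from 0.444 to 0.905). None of 31 partners was called by limma (4 unadjusted), edgeR or DESeq2, and in WT2 to WT4 alone *Dab1* was higher in upper layer neurons (0.74).

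In upper layer neurons, among them many that project across the commissures, the genotype comparison called 1 of 28 members, *Pcdh9*, against 3.48% of all 8243 genes (0.934% lower and 2.55% higher). Its level was 1.24, 1.65 and 1.18 in WT2 to WT4 and 0.807 and 0.662 in KO4 and KO5, without overlap, a mean of 1.36 ± 0.258 (SD, n = 3) and 0.734 ± 0.103 (SD, n = 2). It fell by 0.58 ± 0.133 (SE) on the log2 scale (adjusted p = 0.0374). In WT5 it was 0.649, below both KO libraries. Of thinned cells, 18.6%, 24.8% and 19.5% had a *Pcdh9* UMI in WT2 to WT4, 11% in WT5, and 13.5% and 11.9% in KO4 and KO5 (before thinning 27.8%, 42%, 39.8%, 14.4%, 17.9% and 14.1%). Depth differed between the groups, with a median of 2480, 3635 and 4793 UMIs in upper layer neurons of WT2 to WT4 and 2317 and 2235 in those of KO4 and KO5. With cells thinned to 1800 UMIs the difference was -0.54 ± 0.163 and no longer called (adjusted p = 0.107), nor was it with no filter (adjusted p = 0.123) or over WT4, WT5, KO4 and KO5 (-0.17, adjusted p = 0.999). The call was also lost with edgeR (adjusted p = 0.0989) and DESeq2 (adjusted p = 0.0889), with WT5 added (adjusted p = 0.705), and without WT2, KO4 or KO5 (adjusted p = 0.0733, 0.206 and 0.686).

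EdgeR and DESeq2 called *Pcdh11x* instead, an X-linked protocadherin, at 0.08, 0.0364 and 0.046 in WT2 to WT4 and 0.104 and 0.209 in KO4 and KO5, with 0.2 in WT5 (edgeR log2 difference 1.83, adjusted p = 0.0380). It reached 0.1 in KO4 and KO5 only, so it was tested only through the group where it was high. Of the cell junction core in upper layer neurons, *Cdh2* differed by -0.005 ± 0.146, *Ctnnb1* by -0.21 ± 0.114, *Ctnna2* by -0.22 ± 0.109, *Ctnna1* by -0.031 ± 0.069, *Ctnnbl1* by -0.097, *Ctnnd1* by -0.088 and *Ctnnd2* by 0.34 ± 0.133, with adjusted p from 0.168 to 0.985. *Ctnna2* was 1.01, 0.889 and 0.86 in WT2 to WT4, 0.654 in WT5, and 0.657 and 0.787 in KO4 and KO5. The median was -0.041 over members and -0.067 over all genes. Of 30 partners limma called *Dab1* alone, lower in KO libraries (-0.86 ± 0.12, adjusted p = 0.00294), with 2.81, 2.79 and 2.82 in WT2 to WT4, 1.32 in WT5, and 1.49 and 1.17 in KO4 and KO5. Among all genes 210 were called higher and 77 lower by limma, and 263 and 30 by edgeR.

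**Figure D4:**
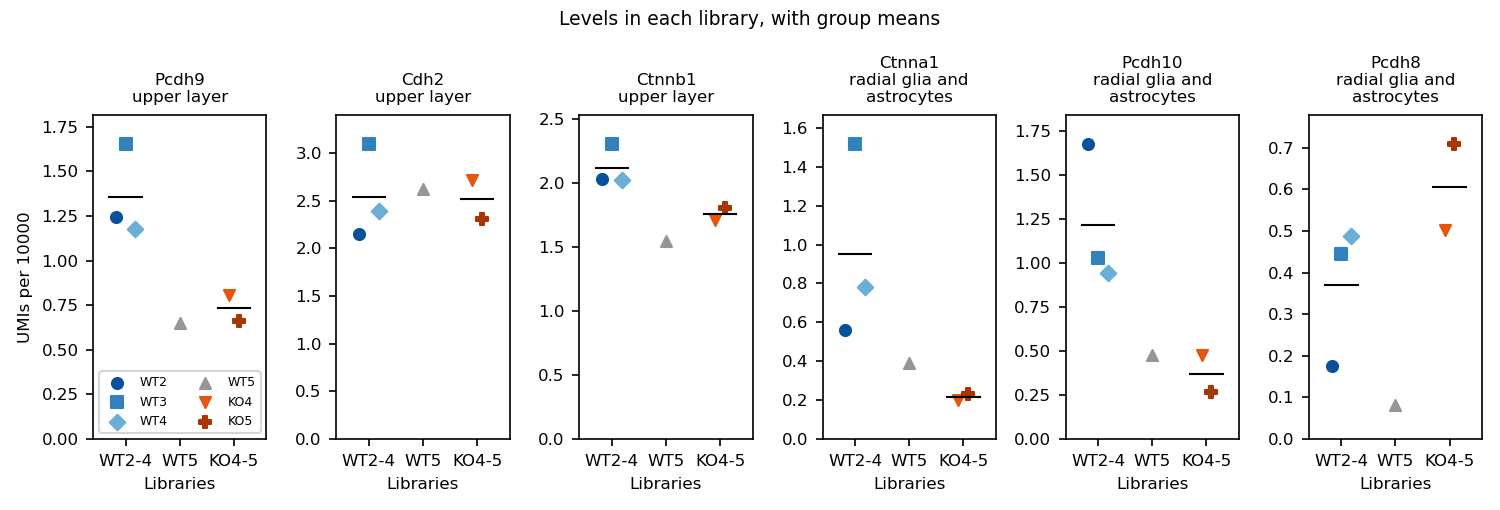
UMIs per 10000 (vertical axes, each from 0) in each library for 3 members in upper layer neurons and 3 in radial glia and astrocytes; short lines are means of WT2 to WT4 and of KO4 and KO5, and the triangle is WT5. *Pcdh9*, *Ctnna1* and *Pcdh10* lie lower in both KO libraries than in WT2 to WT4, and WT5 lies nearer to the KO libraries, at 0.649, 0.394 and 0.478.

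In deep layer neurons no member of 28 was called by limma, where 0.683% of all 8488 genes were (0.636% higher and 0.0471% lower). The members at an unadjusted p under 0.05 were *Pcdh9* (0.859, 1.54 and 1.07 in WT2 to WT4, 0.641 in WT5, 0.741 and 0.59 in KO4 and KO5, -0.49) and *Pcdh17* (1.15, 0.853 and 0.761, 0.847 in WT5, 0.48 and 0.622 in KO4 and KO5, -0.43). In WT5 *Pcdh9* lay between the KO libraries and *Pcdh17* within the range of WT2 to WT4. EdgeR (2 unadjusted) and DESeq2 (0 unadjusted) called none. *Cdh2* differed by 0.12, *Ctnnb1* by -0.17, *Ctnna1* by -0.028, *Ctnna2* by -0.088, *Ctnnbl1* by -0.093, *Ctnnd1* by -0.18 and *Ctnnd2* by 0.24 (adjusted p from 0.593 to 0.948). The median was -0.086 over members and -0.067 over all genes, and no partner of 30 was called by limma (4 unadjusted), edgeR (6 unadjusted) or DESeq2 (2 unadjusted).

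In radial glia and astrocytes 2 of 30 members were called, both lower in KO4 and KO5, against 9.64% of all 9109 genes (6.19% lower and 3.45% higher). *Ctnna1* was 0.563, 1.52 and 0.78 in WT2 to WT4 and 0.198 and 0.231 in KO4 and KO5 (-0.97 ± 0.213, adjusted p = 0.00128). *Pcdh10* was 1.67, 1.03 and 0.945 against 0.476 and 0.269 (-0.96 ± 0.208, adjusted p = 0.000883). Neither overlapped, and WT5 lay at 0.394 and 0.478, below the other libraries labelled wild type. The UMIs behind these levels were 11, 52 and 102 for *Ctnna1* in WT2 to WT4 and 10 and 5 in KO4 and KO5, and 33, 33 and 121 against 22 and 5 for *Pcdh10*. Both are genes that were higher in this class than in neurons in WT2 to WT4, where the class also had more glial markers per cell, and the part of that in the difference was not tested. With cells of 7 or more radial glia markers neither was called (adjusted p = 0.148 and 0.116), with WT5 added neither was (adjusted p = 0.679 for both), DESeq2 called *Ctnna1* alone, and *Pcdh10* was lost without KO5 (adjusted p = 0.136).

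Other members of that class did not pass the test. *Cdh2* was 2.302, 2.998 and 3.05 in WT2 to WT4, 1.90 in WT5, and 3.30 and 2.96 in KO4 and KO5 (0.15 ± 0.192, adjusted p = 0.69). *Ctnnb1* differed by 0.085, *Ctnna2* by 0.27, *Ctnnbl1* by -0.17, *Ctnnd1* by 0.011 and *Ctnnd2* by -0.099 (adjusted p from 0.437 to 0.98). The median was 0.0019 over members and -0.074 over all genes. Of 33 partners 4 were called, the kinase *Gsk3b* (0.75) and the p120-related *Pkp4* (0.56) higher, and the small GTPase *Rap1a* (-0.62) and *Tcf7l2* (-0.53) lower in KO4 and KO5. Levels of these 4 in WT5 are not given here. *Tcf7l2* was also higher in this class than in glutamatergic neurons over the 6 libraries, and the part of that in its difference was not tested. Among all genes 314 were called higher and 564 lower by limma, and 383 and 320 by edgeR, so the split moved with the method.

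**Figure D5:**
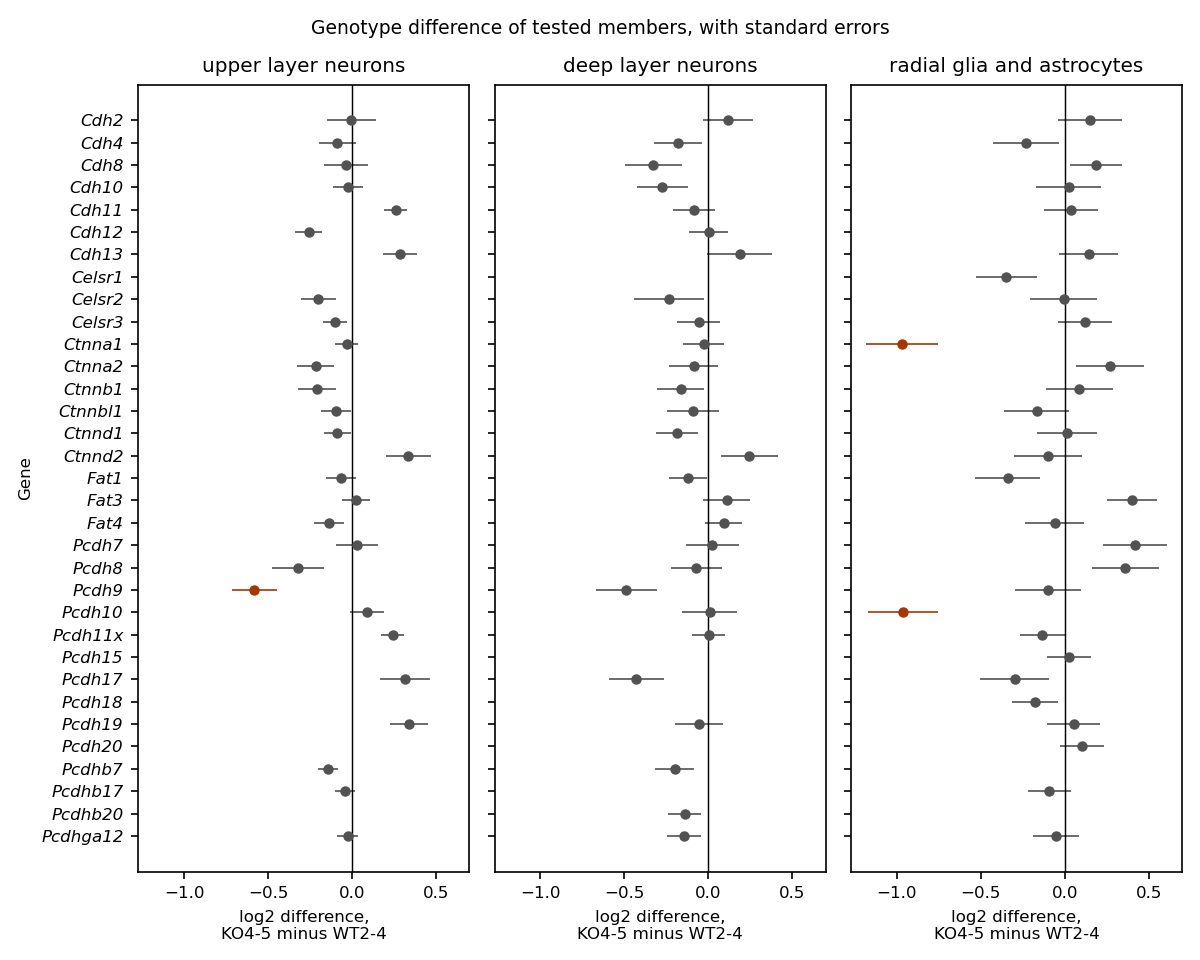
Genotype difference on the log2(UMIs per 10000 + 0.5) scale, KO4 and KO5 minus WT2 to WT4 (horizontal axes), of every member tested (rows) in upper layer neurons, deep layer neurons, and radial glia and astrocytes; bars are standard errors and coloured points passed the adjusted p of 0.05. The coloured points are *Pcdh9* at -0.58 in upper layer neurons and *Ctnna1* and *Pcdh10* at -0.97 and -0.96 in radial glia and astrocytes.

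The difference between radial glia and astrocytes and glutamatergic neurons was also compared between genotypes directly, as an interaction over WT2, WT3, WT4, KO4 and KO5. It was called for 3 of 33 members, *Ctnna1* (-0.93 ± 0.19, adjusted p = 0.000345), *Pcdh10* (-1.04 ± 0.194, adjusted p = 8.93e-05) and *Pcdh8* (0.66 ± 0.188, adjusted p = 0.0144), among 1081 of 9574 genes. *Pcdh8* was 0.175, 0.444 and 0.489 in radial glia and astrocytes of WT2 to WT4, 0.0809 in WT5, and 0.502 and 0.708 in KO4 and KO5, from 1 to 59 UMIs a library. With WT5 added limma called none of 34 members (3 at an unadjusted p under 0.05) and none of 9719 genes. For upper against deep layer neurons the interaction was called for none of 30 members by limma (4 unadjusted). GABAergic neurons could not be compared between genotypes, as KO4 and KO5 held 7 and 3 such cells.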

How the data were processed

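Neocortices of single embryos were dissociated by the authors and profiled with the Chromium 3′ v2 kit. Reads were aligned to GRCm38 and cells filtered in Seurat by the authors, and the submitters' processing notes name Cell Ranger 2.1.0, R 3.6.0 and Seurat 2.3.4. The values that the authors deposited were whole UMI counts for KO4, KO5, WT4 and WT5, and for WT2 and WT3 the natural log of 1 plus UMIs per 10000. Taken back from the log, 100% of the latter came out as whole UMIs within 1e-06. WT1, KO1 and KO2 held few cells and were not used. Cells had 1000 to 5000 genes, 1800 to 10000 UMIs, under 6% mitochondrial and at most 1% haemoglobin UMIs.

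Gates counted the markers with a UMI in a cell, and cells that passed conflicting gates, possible doublets, were left out. Means over cells were tested as log2(value + 0.5) with limma-trend and robust variances (limma 3.58.1, R 4.3.3), for genes at 0.1 or more in at least 2 of the library means compared, without gate markers, and with at least 20 cells per library and class. P-values were adjusted over all genes (Benjamini-Hochberg) and called below 0.05. Classes were compared with library as a block. EdgeR 4.0.16 and DESeq2 1.42.0 on recovered UMIs, thinned cells, other gates and left-out libraries were alternatives. Genotype fits of upper layer neurons and of radial glia and astrocytes were also run on simulated counts. These did not hold the smaller class differences of KO4 and KO5, so they do not test the fits under them. Positions are from GENCODE on GRCm38 by symbol, for 98 of 101 members.

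Members and lists were chosen with earlier results of these data known. Named were members at 0.5 or more in a class, called members, and *Cdh2* and the catenins in each comparison.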

Additional observations from a re-analysis of the deposited data

Results flagged for a closer look

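Of 72 combinations of a member and a class checked over the 4 libraries labelled wild type, 4 held a library far from the other 3, by a gap that filled most of the range (Dixon's 95% limit), and chance alone gives about 1 in 20. *Cdh4* in upper layer neurons was 0.622 in WT4 and 0.418 to 0.447 in the others. *Celsr2* in deep layer neurons was 1.115 in WT3, which had 68 such cells and 27 *Celsr2* UMIs, and 0.443 to 0.527 in the others. *Ctnnd2* in the same class was 0.661 in WT3 and 1.04 to 1.09 in the others. *Pcdh11x* in radial glia and astrocytes was 0.0598 in WT2 and 0.133 to 0.147 in the others, where 3 UMIs in WT2 would amount to 0.158.

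For 3 of 33 members the difference between radial glia and astrocytes and glutamatergic neurons itself differed between KO4 and KO5 and WT2 to WT4. This was so for 1081 of all 9574 genes. The change was -0.93 for *Ctnna1*, -1.04 for *Pcdh10* and 0.66 for *Pcdh8* on the log2 scale (KO4 and KO5 minus WT2 to WT4). KO4 and KO5 share their smaller class differences with WT5, so genotype cannot be told apart from these. With WT5 added to the libraries labelled wild type the values were -0.80, -0.78 and 0.67, and none was called (adjusted p = 0.667, 0.672 and 0.667).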

How the results depend on the processing

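The genotype call in upper layer neurons rested on *Pcdh9* and was 1 member. It became 0 with no filter on low values, with thinned cells, with WT5 added, and over WT4, WT5, KO4 and KO5 with or without the replicate block, and 2 with 1 more marker per gate or with haemoglobin-rich cells kept. Leaving out 1 library gave 0 to 3, 0 of them without WT2, KO4 or KO5 and 3 without WT4. In deep layer neurons leaving out a library gave 0 to 0. In radial glia and astrocytes the 2 members became 1 with DESeq2 and without KO5 (range 1 to 2), and 0 with WT5 added, with 7 or more markers, or over WT4, WT5, KO4 and KO5 with or without the replicate block. Upper against deep layer neurons gave 1 member in WT2 to WT4 alone and 0 to 0 with a library left out. GABAergic against glutamatergic neurons gave 0 with no filter or DESeq2 and 1 with thinned cells, and 0 to 6 with a library left out. Radial glia and astrocytes against glutamatergic neurons gave 1 with no filter, 9 with edgeR (TMM or RLE factors) or 1 more marker per gate, 7 with DESeq2, 5 with thinned cells, 8 with 7 or more markers, 13 in WT2 to WT4, 0 in WT5, KO4 and KO5, and 0 to 6 with a library left out (0 without WT2, WT3 or WT4, 6 without WT5, 5 without KO5). Over all genes limma called 9.47% in the 6 libraries and 35.6% in WT2 to WT4, and the counts by tool are given below. The counts of members moved along with those over all genes, so they are not a result about the members. The cause was not tested. None of the 12 calls of members made with the libraries of each comparison changed direction under the alternatives run for it, but 4 of the members called in WT2 to WT4 alone had the opposite sign in WT5, KO4 and KO5. The labels do not say whether libraries of the same number share more than that number. In upper layer neurons the difference between WT4 and WT5 correlated with that between KO4 and KO5 with r = 0.290 over 1451 genes, which does not settle it. The replicate block changed no call against the same libraries without it. Over all genes, limma, edgeR and DESeq2 called 58, 198 and 98 in deep layer neurons by genotype, 878, 703 and 303 in radial glia and astrocytes by genotype, 0, 18 and 11 between layers, 414, 744 and 236 between GABAergic and glutamatergic neurons, and 920, 2227 and 2125 between radial glia and astrocytes and glutamatergic neurons. DESeq2 gave an adjusted p to 6019, 4340 and 1477 genes in the first 3 of these. Depth limits the rare members most: 64 of 101 were never tested.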

Other observations

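Endothelial cells were few (8, 10 and 16 in WT2 to WT4, and 22, 33 and 13 in WT5, KO4 and KO5), and their members were described only, chosen after their values were seen. These cells carried a median of 7, 8 and 7 endothelial markers in WT2 to WT4 but 4, 4 and 3 in WT5, KO4 and KO5. Their median glutamatergic markers were 1.5, 1 and 1 against 2.5, 2 and 3. The part of this in the levels below was not tested. *Cdh5*, the cadherin of vascular junctions, measured 4.37, 3.22 and 1.49 in WT2 to WT4 and 0.529, 0.955 and 0.819 in WT5, KO4 and KO5, from 2 to 14 UMIs a library. In glutamatergic neurons it was at most 0.0298. *Ctnna1* was 0.453, 2.096 and 1.75 in endothelial cells of WT2 to WT4, and 0.712, 1.11 and 0 in those of WT5, KO4 and KO5.

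The oligodendrocyte lineage, present in number in WT4 alone (76 cells), held *Pcdh11x* at 1.603 (56 UMIs), *Pcdh17* at 1.595 (59 UMIs) and *Pcdh15*, known from inner ear hair cells, at 0.962 (33 UMIs), the last chosen after its values were seen. In glutamatergic neurons of WT4, *Pcdh11x* was 0.0779 and *Pcdh17* 0.452. Within deep layer neurons of WT4, *Pcdh9* was 1.71 in cells with layer 6 markers (130 cells) and 0.98 in those with layer 5 markers (360 cells). In WT5, KO4 and KO5 the values were 0.583, 0.918 and 0.342 against 0.675, 0.664 and 0.78, with no common order. None of these differences was tested.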
